A study of Mus musculus with 8 samples.

Results

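The cytochrome P450 genes of mouse inguinal fat were examined in 4 RNA libraries from Lsd1 KO mice and 4 from controls. Members were all genes whose symbol is Cyp followed by a number, a letter and a number, with Cyp51 left out, which gave 93 of the 23360 genes in the files. A gene was taken as expressed, and was tested, when its value was at least 10 in at least 4 libraries; 26 of the 93 P450 genes and 14591 of all genes met this. Values are scaled read counts: the authors' read counts per gene multiplied by 1 factor per library. Both groups were 6 weeks old. The knockout mice carried floxed Lsd1 alleles and Adipoq-Cre, a transgene active in adipocytes, and the controls carried floxed Lsd1 alleles. No group had Adipoq-Cre alone, so loss of Lsd1 and presence of Cre cannot be told apart, and other cells of the pad keep Lsd1. The labels do not say that each library came from its own mouse, so p-values measure the spread between libraries, which may be technical.

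P450 enzymes hold a haem group with which they insert oxygen into fatty acids, sterols, retinoids, steroid hormones and foreign compounds. Most sit in the endoplasmic reticulum and take electrons from the reductase Por; a few, such as Cyp27a1 and Cyp11a1, work in mitochondria and take them from the ferredoxin Fdx1. The liver makes the most, while fat makes a smaller set.

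The libraries held 25671837 to 32442724 recovered reads. Kdm1a, which encodes Lsd1, had 566, 578, 547 and 581 scaled reads in Lsd1 KO replicates 1 to 4, against 699, 685, 799 and 735 in control replicates 1 to 4 (log2 fold change -0.36, limma adjusted p = 0.0498). That call was lost in 16 of 22 alternatives, among them each library left out singly (adjusted p up to 0.158), with the log2 fold change between -0.43 and -0.31. These counts cover the whole gene, not the deleted exons alone. Strain and sex are not given in the labels. Each of the 12 adipocyte markers was detected, with summed values of 454169 to 520119 in knockouts and 591654 to 732742 in controls, and 11 of the 12 had a negative log2 fold change. Skeletal muscle markers summed to 200957, 192502, 13274 and 117309 in Lsd1 KO replicates 1 to 4, and to 8847 to 38852 in controls. In RNA from whole tissue, fewer cells of a type and less RNA per cell cannot be told apart.

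Of the 26 expressed P450 genes 3 passed the threshold: Cyp2e1 was lower in the knockout, and Cyp27a1 and Cyp2d22 were higher. These were 11.5% of the tested members, against 1.64% of all tested genes (1.28% higher and 0.356% lower; limma on log2(value + 1), Benjamini-Hochberg adjusted p under 0.05). The family was chosen with earlier results of these data known, so this share is a description. The median log2 fold change was 0.16 over the 26 members and 0.02 over all genes tested, with 18 members and 54.6% of all genes above 0. Cyp4f39 and Cyp3a13, which met the filter only or mainly through knockout libraries, were among the 18. Groups did not overlap in 4 members, against 8.65% of all tested genes; 1 of the 4, Cyp4f39, reached 10 in all 4 knockouts and in 0 controls, so the filter itself fixed its lack of overlap. An unadjusted p under 0.05 was reached by 9 members, 6 higher and 3 lower, against 14.5% of all genes. Cyp4f39 was 1 of the 6, and the filter bears on its p-value as well.

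The upstream sequences of 2 of these 3 genes follow, since they are the genes whose transcript level passed; Cyp2d22 had no entry in the promoter table. Each line gives the 250 bases before the RefSeq start (GRCm38.p6), at chr7:140763569-140763818 on the plus strand for Cyp2e1 and chr1:74713285-74713534 on the plus strand for Cyp27a1. Capitals mark matches, on either strand, to the motifs searched. These were the TATA box TATAAA, the CCAAT box (which reads ATTGG on the other strand), the nuclear receptor element AGGTCA and the HNF1 element read as GTTAAT. The core GCGTG, bound by the dioxin receptor Ahr, and the C/EBP palindrome with the letters TTGCGNAA were searched as well.
Cyp2e1: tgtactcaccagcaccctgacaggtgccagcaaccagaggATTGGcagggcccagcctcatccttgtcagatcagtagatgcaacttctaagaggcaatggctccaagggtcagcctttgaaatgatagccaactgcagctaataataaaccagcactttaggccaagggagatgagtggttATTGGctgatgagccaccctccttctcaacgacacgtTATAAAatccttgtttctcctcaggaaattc
Cyp27a1: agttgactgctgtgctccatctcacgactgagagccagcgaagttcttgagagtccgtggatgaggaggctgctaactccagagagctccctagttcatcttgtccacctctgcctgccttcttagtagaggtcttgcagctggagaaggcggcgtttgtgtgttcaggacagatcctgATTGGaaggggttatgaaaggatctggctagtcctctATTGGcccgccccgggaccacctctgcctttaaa
The Cyp2e1 window held TATAAA beginning 31 bases before the start, and CCAAT on the minus strand 68 and 210 bases before it. The Cyp27a1 window held CCAAT on the minus strand 34 and 71 bases before the start and no TATAAA. Of 32851 such windows in the table, 12.4% held the TATA box letters and 33.9% the CCAAT letters. Neither window shown held the letters searched for the nuclear receptor element (in 14.02% of windows) or the HNF1 element (6.43%). The letters of the Ahr core (28.2%) and of the C/EBP palindrome (0.670%) were also in neither. Only exact letters were searched, so a site that departs from them would be missed.

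Cyp2e1, which oxidises ethanol, acetone and other small molecules, fell the most of all expressed P450 genes. Its scaled read counts were 8281, 1838, 901 and 2500.3 in Lsd1 KO replicates 1 to 4, against 25644, 33816, 24533 and 22365 in control replicates 1 to 4. Every knockout library lay below every control, and knockout replicate 1 stood well above the other 3 knockouts. The mean was 3380.2 ± 3332 in knockouts and 26589.7 ± 5007 in controls (SD, n = 4 each), so that the control mean was 7.87 times the knockout mean, which knockout replicate 1 raised. The log2 fold change was -3.44 (SE 0.54, 95% confidence interval -4.64 to -2.24, limma adjusted p = 0.0133). Without knockout replicate 1 it was -4.03 (adjusted p = 0.000680). An exact permutation test, two-sided, gave p = 0.0286, which is the smallest value possible with 70 assignments. The gene lies on chromosome 7 from 140763819 to 140774990 (GRCm38.p6), and its annotated exons overlap those of no other gene in GENCODE M21.

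The spread of Cyp2e1 within the knockout group was wide. Its highest knockout library had 9.19 times the value of the lowest, against 1.51 times in controls; 0.946% of tested genes with a value above 0 in every knockout had a knockout range as wide. Kdm1a differed by 1.06 times between the same 4 libraries. Knockout replicate 3, which had the lowest Cyp2e1, was the knockout whose muscle markers lay within the control range. With the muscle marker score as a covariate the log2 fold change of Cyp2e1 was -4.36 (limma adjusted p = 0.00522). The call was lost without knockout replicate 2 (log2 fold change -3.31, adjusted p = 0.0569), without knockout replicate 4 (-3.45, 0.0595) or without both controls titled 517 and 518, replicates 2 and 1 (-3.27, 0.134).

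Cyp2e1 made up most of the P450 signal of control fat. It held 48.6%, 19.2%, 10.4% and 23.0% of the summed scaled reads of all 93 P450 genes in Lsd1 KO replicates 1 to 4, against 78.2%, 81.6%, 77.1% and 73.3% in control replicates 1 to 4. The groups did not overlap. Per kilobase of transcript it was the highest P450 gene in 3 of 4 knockouts and in all 4 controls; in knockout replicate 3 that gene was Cyp27a1. Among all genes ranked by scaled reads, Cyp2e1 stood at places 147, 1423, 3662 and 904 in knockout replicates 1 to 4, against 41, 23, 40 and 43 in control replicates 1 to 4. The sum of the 92 other P450 genes was 8163 ± 504 in knockouts and 7557 ± 454 in controls (SD, n = 4 each), with ranges of 7735 to 8771 and 7142 to 8163 that overlap.

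**Figure D1:**
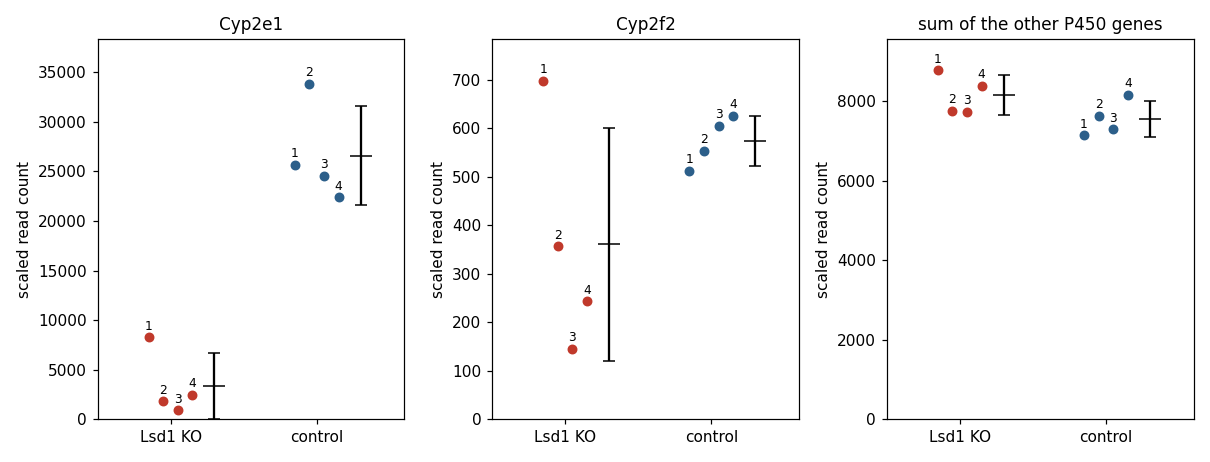
Scaled read count (vertical axis, from 0) of Cyp2e1, Cyp2f2 and the summed other P450 genes in Lsd1 KO and control libraries; points are libraries with their replicate number, and bars are the mean ± SD (n = 4). Cyp2e1 is below every control in all 4 knockouts, Cyp2f2 in knockout replicates 2, 3 and 4 but not in replicate 1, and the sum of the other genes overlaps between groups.

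Cyp27a1, the mitochondrial sterol hydroxylase that makes side-chain oxysterols and opens a route to bile acids, was higher in the knockout. It had 1484, 1493, 1624 and 1574 scaled reads in Lsd1 KO replicates 1 to 4, against 903, 1190.2, 1038 and 1263 in control replicates 1 to 4. All knockouts lay above all controls, and the knockouts lay closer together. The means were 1544 ± 66.9 in knockouts and 1098 ± 160.5 in controls (SD, n = 4 each), a rise of 40.5% (log2 fold change 0.50, SE 0.11, 95% confidence interval 0.27 to 0.74, limma adjusted p = 0.0498). The gene lies on chromosome 1 from 74713148 to 74737897 (GRCm38.p6), and the start used for its upstream window lies inside this interval. Cyp27a1 is also made by macrophages, and the 4 measured macrophage markers summed to 4296 to 6773 in knockouts and 4581 to 5630.4 in controls; their part in the result was not tested.

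Cyp2d22, a member of the mouse Cyp2d cluster of drug-metabolising enzymes, was higher by about the same factor. It had 1295, 1077, 1221 and 1295 scaled reads in Lsd1 KO replicates 1 to 4, against 867, 889, 742 and 991 in control replicates 1 to 4. The groups did not overlap. The means were 1222 ± 103 in knockouts and 872 ± 102 in controls (SD, n = 4 each; log2 fold change 0.49, SE 0.10, 95% confidence interval 0.26 to 0.72, limma adjusted p = 0.0495). The gene lies on chromosome 15 from 82370527 to 82380260 (GRCm38.p6). It has close paralogues, and the other Cyp2d members had at most 2.72 scaled reads in any library. Both calls sit at the edge of the threshold: each was lost in 18 of 22 alternatives, with adjusted p up to 0.174 for Cyp27a1 and 0.247 for Cyp2d22, while the log2 fold change stayed between 0.41 and 0.60 and between 0.41 and 0.56.

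**Figure D2:**
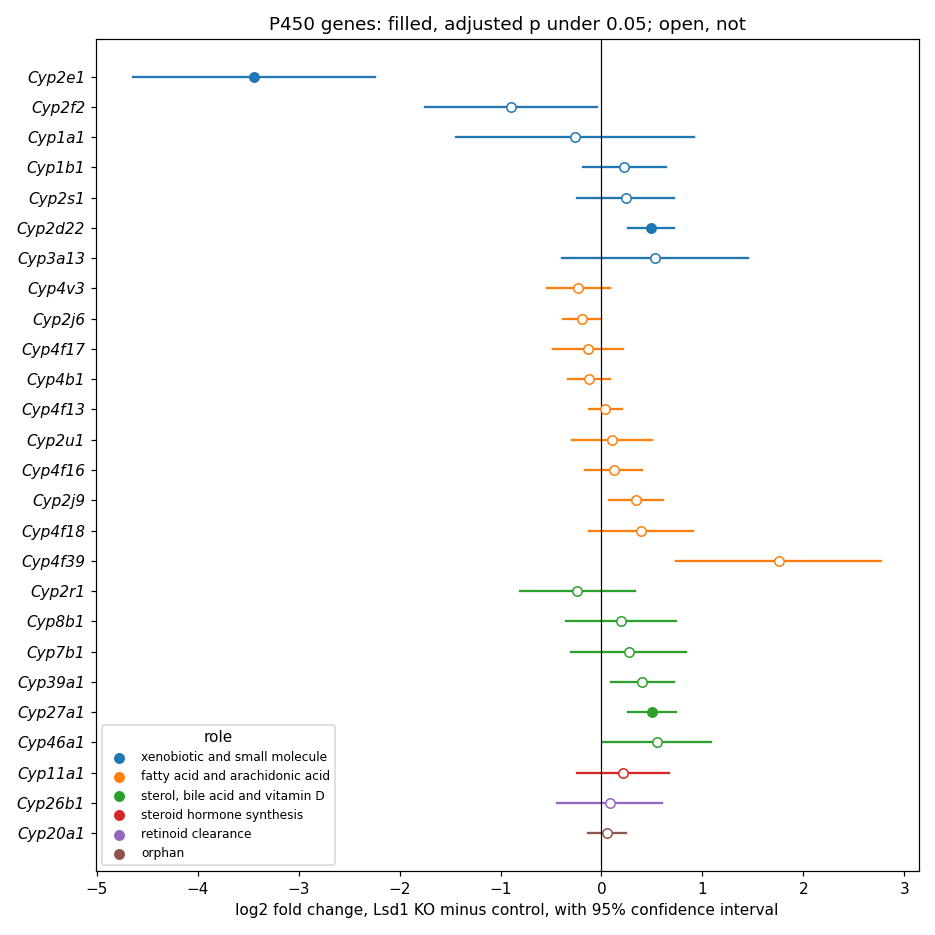
Log2 fold change of the 26 expressed P450 genes, Lsd1 KO minus control (horizontal axis), with bars for the 95% confidence interval from limma and colours for role; filled points passed the adjusted threshold. Cyp2e1 is at -3.44, Cyp27a1 and Cyp2d22 are near 0.5, and Cyp4f39, which did not pass, is at 1.75.

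The P450 genes that act on foreign and other small molecules had 7 expressed of 34 members, of which 1 passed as higher and 1 as lower. Cyp2f2, which oxidises naphthalene in lung airway cells, had 697, 356, 146 and 243 scaled reads in Lsd1 KO replicates 1 to 4, against 512, 554, 604 and 626 in control replicates 1 to 4. Knockout replicate 1 was above all controls and the other 3 knockouts were below all controls. Its log2 fold change was -0.90 (SE 0.38, limma adjusted p = 0.319). It passed in 2 of 22 alternatives. These were without knockout replicate 1 (-1.29, limma adjusted p = 0.0429) and with the mammary marker score as a covariate (-1.44, 0.0184). In the rest it stayed lower and did not pass, with limma adjusted p up to 0.686. Knockout replicate 1 was thus the highest knockout for both Cyp2e1 and Cyp2f2, and replicate 3 the lowest for both. Cyp2f2 shares 274 exonic bases with Gm15883 on the opposite strand, and the strand setting of the counting is not given in the sources used here. Exons of Cyp4v3 (313 bases) and Cyp11a1 (145) overlap another gene on the same strand. Those of Cyp4f18 (181), Cyp2u1 (548) and Cyp2s1 (260) overlap 1 on the opposite strand.

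Cyp1b1, an oxidase of oestrogens and polycyclic hydrocarbons, had 353 to 668 scaled reads in knockouts and 401 to 526 in controls (log2 fold change 0.22, limma adjusted p = 0.622). Cyp1a1, the classical target of Ahr, ranged from 17.2 to 52.4 in knockouts and from 22.6 to 114.7 in controls, where replicate 1 alone was above 30 (log2 fold change -0.26, adjusted p = 0.861). Cyp2s1, an epithelial P450, averaged 41.4 ± 6.09 in knockouts and 35.3 ± 7.95 in controls (SD, n = 4 each). Cyp3a13 averaged 13.5 ± 4.86 in knockouts and 9.29 ± 4.69 in controls. It reached 10 in 3 knockouts and 1 control, so the filter bears on its difference. None of these 4 genes passed, and each had overlapping groups.

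The P450 genes of fatty acids and arachidonic acid had 10 expressed of 39 members, and none passed. The most abundant per kilobase was Cyp4b1, which hydroxylates fatty acids at the chain end, with 1134 ± 120 scaled reads in knockouts and 1234 ± 97.7 in controls (log2 fold change -0.12, 95% confidence interval -0.34 to 0.09, limma adjusted p = 0.599). Cyp4v3, another fatty acid hydroxylase, averaged 658 ± 68.3 in knockouts and 780.4 ± 166 in controls (log2 fold change -0.23). Cyp4f13, a relative of the leukotriene hydroxylases, lay at 414 to 440.4 in knockouts and 401 to 430 in controls (log2 fold change 0.04, 95% confidence interval -0.12 to 0.20).

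Cyp4f39, a relative of the enzyme that hydroxylates very long fatty acids for the skin barrier in humans, had the most positive fold change of its role group. It had 33.8, 22.3, 11.5 and 18.5 scaled reads in Lsd1 KO replicates 1 to 4, against 1.95, 8.35, 8.81 and 4.64 in control replicates 1 to 4. It met the filter only through its knockout libraries, so a difference was bound to appear and its values are a description. The log2 fold change was 1.75, and the gene did not pass. Without the filter the limma adjusted p was 0.132. With any knockout library left out the gene no longer met the filter. Keratin genes were unevenly spread over the same libraries: Krt5 had 237, 82.2, 0 and 0 scaled reads in knockout replicates 1 to 4 and at most 0.49 in controls, and Krt14 had 137, 39.7, 0 and 0 against at most 0.98. The 10 mammary epithelium markers, to which these keratins belong, summed to 672, 312, 137 and 139 in knockout replicates 1 to 4 and to 124.5 to 164 in controls. Cyp4f39 was thus highest in the 2 knockouts with keratin reads. Its place above every control in the 2 without was fixed by the filter. With the mammary marker score as a covariate the log2 fold change of Cyp4f39 was 1.36. The part of keratin-bearing cells in its level was not tested.

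The arachidonic acid epoxygenases Cyp2j6 and Cyp2j9, which both lie on chromosome 4, had opposite signs. Cyp2j6 averaged 359.5 ± 16.3 in knockouts and 412 ± 28.5 in controls (log2 fold change -0.20, limma adjusted p = 0.326). Cyp2j9 averaged 175 ± 10.7 in knockouts and 138 ± 18.4 in controls (0.34, adjusted p = 0.235). Neither passed, and the groups overlapped for both.

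Among the Cyp4f genes, which inactivate leukotrienes and hydroxylate fatty acids, Cyp4f18 ranged from 271 to 294 in knockouts and from 151 to 303 in controls. Its control values fell apart, with 156 and 151 in the replicates titled 518 and 517 and 303 and 290 in the others (log2 fold change 0.39, limma adjusted p = 0.484). Without the controls titled 517 and 518 the sign turned (log2 fold change -0.081). B cell markers split the same controls. They summed to 7503 and 5852 in control replicates 1 and 2, and to 12444 and 10595 in replicates 3 and 4. With the B cell, muscle and mammary marker scores as covariates the log2 fold change of Cyp4f18 was 0.09, 0.51 and 0.38. The cause of the split was not tested. Cyp4f16 and Cyp4f17 had log2 fold changes of 0.12 and -0.13, and Cyp2u1 of 0.11.

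Genes of sterol, bile acid and vitamin D metabolism had 6 expressed of 9 members, 1 of which, Cyp27a1, passed as higher. Cyp39a1, an oxysterol hydroxylase, averaged 126 ± 18.6 in knockouts and 94.0 ± 8.19 in controls (SD, n = 4 each; log2 fold change 0.41, limma adjusted p = 0.224). Cyp46a1, known as the cholesterol hydroxylase of neurons, averaged 24.5 ± 4.08 in knockouts and 16.6 ± 3.99 in controls (0.55, adjusted p = 0.332). Cyp7b1, another oxysterol hydroxylase, had 26.5 to 38.2 in knockouts and 15.2 to 31.3 in controls. Cyp8b1, which directs bile acid synthesis to cholic acid in the liver, had 15.98 to 17.96 in knockouts and 11.7 to 21.5 in controls. Cyp2r1, a vitamin D hydroxylase, had 11.98 to 23.4 in knockouts and 16.5 to 24.9 in controls, with the only negative fold change of the group (-0.24). Cyp7a1 and Cyp24a1, which clear cholesterol in liver and vitamin D in kidney, had 0 reads in all 8 libraries, and Cyp27b1 had at most 5.41 scaled reads.

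The remaining roles had 1 expressed gene each. Cyp26b1, which clears retinoic acid, had 273 ± 46.0 scaled reads in knockouts and 268 ± 101 in controls (SD, n = 4 each; log2 fold change 0.08, limma adjusted p = 0.911), while Cyp26a1 had at most 3.54 scaled reads in any library. Cyp11a1, which cuts the cholesterol side chain in the first step of steroid synthesis, had 25.1 to 42.0 in knockouts and 28.4 to 34.9 in controls (0.21, adjusted p = 0.684). Cyp19a1, the aromatase, had 1 read, in control replicate 1. Cyp20a1, whose substrate is not settled, had 334 ± 15.99 in knockouts and 321 ± 18.8 in controls (0.06, 95% confidence interval -0.13 to 0.24).

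**Figure D3:**
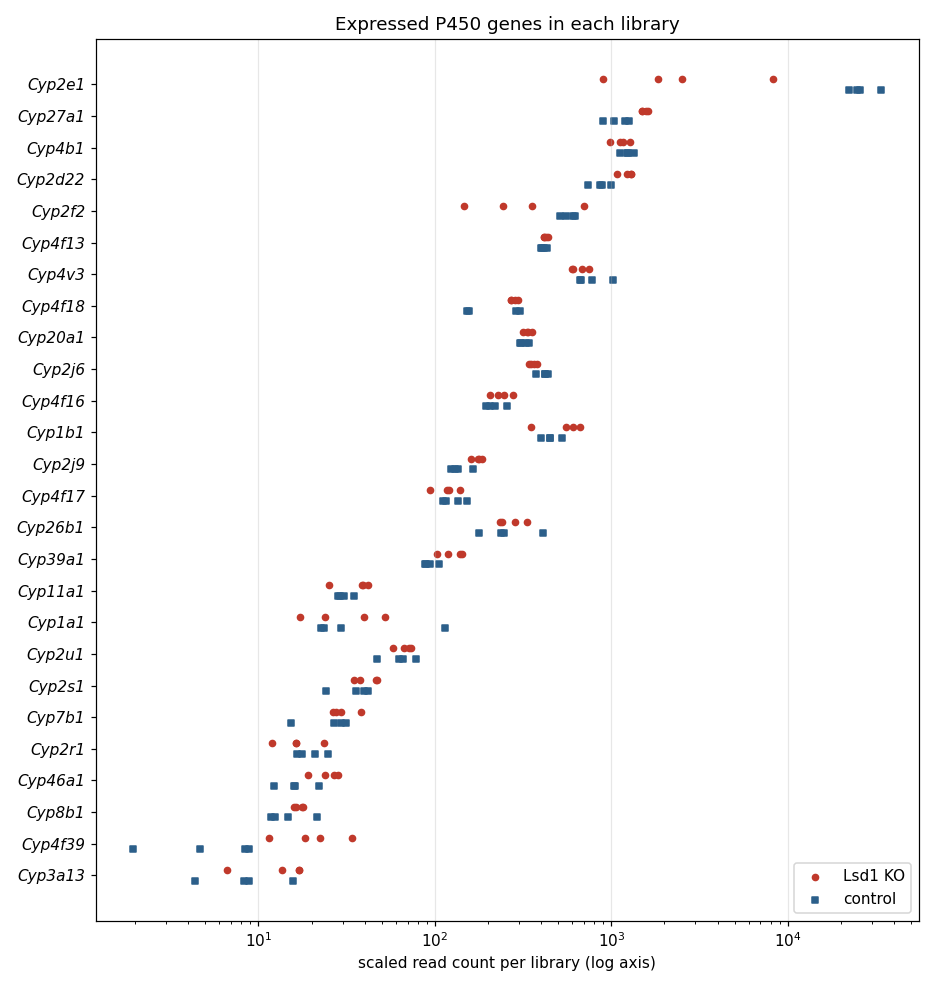
Scaled read count (horizontal log axis) of the 26 expressed P450 genes in each library, ordered from top to bottom by mean level per kilobase of transcript; circles are Lsd1 KO and squares are control libraries. Cyp2e1 stands apart at the top in controls, at 22365 to 33816, and its knockout values run from 901 to 8281.

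Per kilobase of transcript, Cyp2e1 led both groups, at 1844 scaled reads in knockouts and 14506 in controls. Next came Cyp27a1 at 816 and 580.5, Cyp4b1 at 599 and 652, and Cyp2d22 at 441 and 315, each given for knockouts and then controls. Cyp27a1 stood before Cyp4b1 in knockouts and after it in controls, where their per-library values overlapped. After them, by mean per kilobase, stood Cyp2f2 (193 in knockouts and 307 in controls), Cyp4f13 (242 and 236), Cyp4v3 (173 and 205), Cyp4f18 (165 and 132), Cyp20a1 (150.1 and 144), Cyp2j6 (99.7 and 114), Cyp4f16 (107 and 98.4) and Cyp1b1 (106 and 88.8). For 8 of the 23 members that did not pass, among them Cyp4b1, Cyp4f13 and Cyp20a1, the 95% confidence interval lay within 1.5-fold in either direction.

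The other 67 members were not tested. Of these, 32 had no read in any library, which allows up to 1.33 to 1.64 scaled reads per library (3 recovered reads; counting error only), 32 stayed at or below 9.30 scaled reads, and 3 reached 10 in at least 1 library. Those 3 were Cyp4f14 (9.82, 23.9, 26.1 and 13.98 in Lsd1 KO replicates 1 to 4, and 2.44 to 8.77 in controls), Cyp2b10 (5.75 to 16.9 in knockouts and 4.88 to 17.5 in controls) and Cyp2t4 (5.75 to 8.18 in knockouts and 3.43 to 10.7 in controls). Cyp4f14, a leukotriene hydroxylase, reached 10 in 3 libraries, all of them knockouts. Liver-type members such as Cyp1a2, Cyp3a11 and Cyp2c29 had at most 0.98 scaled reads in any library. Cyp2b19, a keratinocyte enzyme, was read only in knockout replicates 1 and 2 (8.18 and 4.35), the libraries with Krt5 and Krt14, and Cyp2g1 only in knockout replicate 1 (4.36).

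Genes that serve or control P450 enzymes were read from the same test. Of 10 tested genes of electron transfer none passed; the reductase Por had 3924 to 4689 scaled reads in knockouts and 4598 to 6420 in controls (log2 fold change -0.27, limma adjusted p = 0.340), Cyb5b had a log2 fold change of 0.06, and Cyb5a of -0.16. Of 13 haem genes none passed, and Alas1, the first enzyme of haem synthesis, had 2453 to 4002 in knockouts and 2771 to 3101 in controls; Alad and Fech, later enzymes of that pathway, had log2 fold changes of -0.26 and -0.16. Of 25 receptors and transcription factors none passed. Cebpa, Pparg and Rxra, the most abundant of them, had log2 fold changes of -0.42, -0.16 and -0.22. The receptors Nr1i2 and Hnf4a, which drive many liver P450 genes, had at most 2.21 and 1.95 scaled reads. Ahr, the dioxin receptor, had 226 to 330 in knockouts and 346 to 385 in controls, without overlap (log2 fold change -0.35, adjusted p = 0.245).

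Enzymes that act after or beside the P450s held 4 genes past the threshold among 37 tested, 3 lower and 1 higher, or 10.8% against 1.64% of all genes. The list was chosen with earlier results of these data known, so its share is a description. Aox1, an aldehyde oxidase, had 1097, 781, 616 and 892 scaled reads in Lsd1 KO replicates 1 to 4, against 1527, 1638, 1691 and 1431 in control replicates 1 to 4 (limma adjusted p = 0.0186, log2 fold change -0.92, SE 0.15). Ephx2, the soluble epoxide hydrolase that opens the fatty acid epoxides made by P450 enzymes, had 3570.3, 2966, 2942 and 3294 in knockouts, against 5186, 7780, 4978 and 4726 in controls (-0.80, SE 0.15, adjusted p = 0.0326). Gsto1, a glutathione transferase of the omega class, had 612, 423, 644 and 492 in knockouts, against 984, 800.0, 822 and 921 in controls (-0.71, SE 0.14, adjusted p = 0.0352).

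Gstt3, a glutathione transferase of the theta class, was the higher one, with 416, 348, 430.4 and 401 in knockouts, against 219, 290.4, 266 and 243 in controls (limma adjusted p = 0.0219, log2 fold change 0.65, SE 0.11). None of these 4 genes had overlapping groups. Gstt3 shares 524 exonic bases with Gm20441 on the same strand, and reads there could belong to either gene. Each call was lost when some single libraries were left out and without the controls titled 517 and 518 together (adjusted p 0.0632 for Ephx2 to 0.192 for Gsto1). With marker scores as covariates, Gsto1 (adjusted p 0.0898 to 0.116) and Gstt3 (0.0515 to 0.0598) were lost with each of the muscle, B cell and mammary scores, Ephx2 with the muscle (0.0507) and mammary (0.0638) scores, and Aox1 with the B cell score (0.0716). Ces1d, Gstz1 and Mgst1, the most abundant of the list with Ephx2, did not pass (log2 fold changes -0.14, -0.35 and -0.59, limma adjusted p = 0.741, 0.109 and 0.0689).

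**Figure D4:**
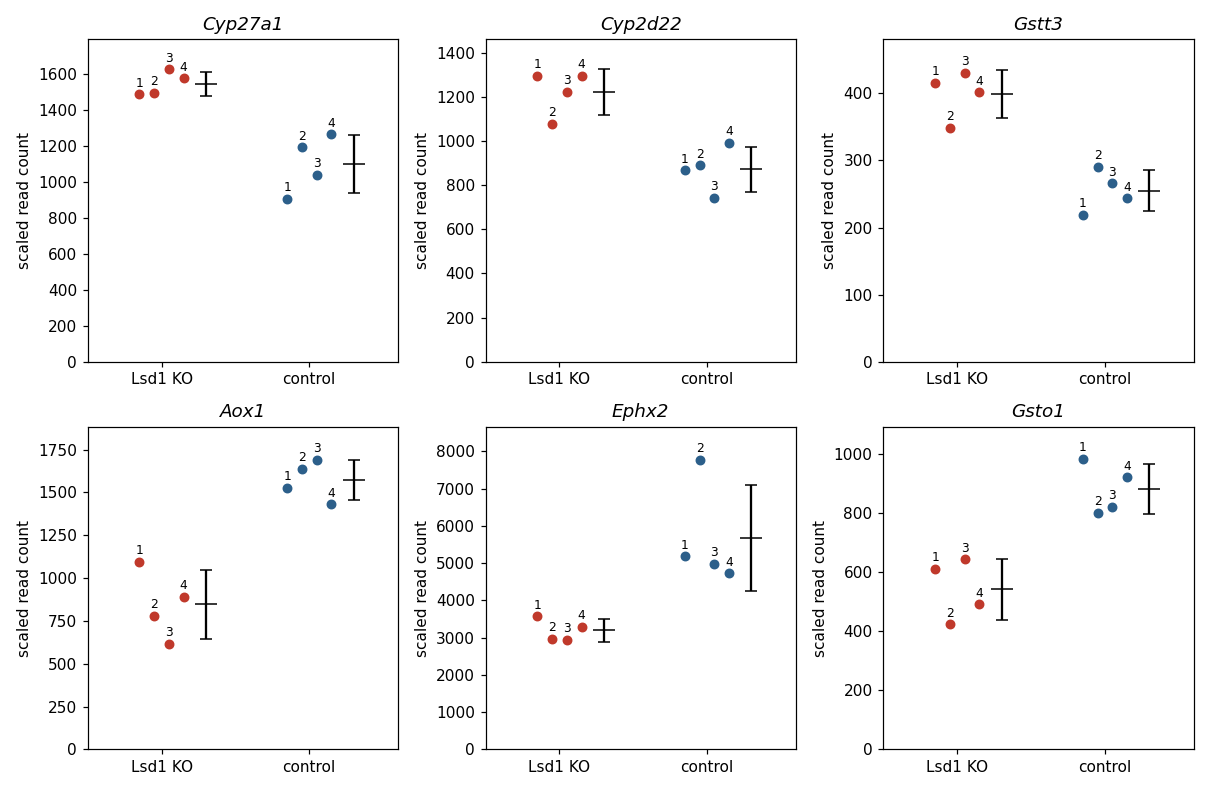
Scaled read count (vertical axes, from 0) of the higher P450 genes Cyp27a1 and Cyp2d22 and of the related enzymes Gstt3, Aox1, Ephx2 and Gsto1 in Lsd1 KO and control libraries; points are libraries with their replicate number, and bars are the mean ± SD (n = 4). In each of the 6 genes the knockout and control values do not overlap, with the knockouts above the controls in the upper row and below them in the lower row.

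The lists of ethanol, aldehyde and ketone handling (15 tested) and retinoid metabolism (10 tested) held no gene that passed. Aldh2, which clears the acetaldehyde that Cyp2e1 makes from ethanol, had 11134 to 12518 scaled reads in knockouts and 12919 to 15135 in controls, without overlap (log2 fold change -0.23, limma adjusted p = 0.298). Cat, a catalase that can also oxidise ethanol, and the thiolase Acat1 had log2 fold changes of -0.39 and -0.31. In the retinoid list the most abundant genes, Rbp4, Rarres2 and Dhrs3, had log2 fold changes of -0.02, 0.36 and 0.24. The P450-fold enzymes with other symbols did not pass either: Ptgis, prostacyclin synthase, had 239 to 281 in knockouts and 193 to 232 in controls without overlap (0.32, adjusted p = 0.200), Tbxas1, thromboxane synthase, had a log2 fold change of 0.20, Cyp51, the sterol demethylase, of -0.29, and Cyp2ab1 of 0.29.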

How the data were processed

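The submitters' processing notes and the design text name TopHat (version 2) as the aligner, mm10 as the build, HOMER as the counter, and edgeR and DESeq for the authors' own tests. The sources used here do not give the annotation, the strand setting or the scaling. The deposited values are a signal: whole read counts multiplied by 1 factor per library. Within a tolerance of 0.02, 99.97 to 100% of values above 0 were whole multiples of 1 step (0.442 to 0.545), and dividing by it recovered the reads. A step may be 1 end of a read pair. Accessions were matched to symbols through RefSeq GRCm38.p6 (22527) and GENCODE M21 (124), and 721, with 1.64% of the signal, kept their accession; 1 row without accession was dropped. For 12 symbols with 2 rows, none a P450 gene, the higher row was kept. The symbol form leaves out 10 other Cyp entries beside Cyp51, such as pseudogenes and symbols ending in a letter. Transcript lengths came from GENCODE M21 and promoter sequences from RefSeq, with an entry for 21 of the 26 expressed members.

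The test was limma 3.58.1 (R 4.3.3) on log2(value + 1), pseudocount 1, with the prior variance following expression level, genotype as the only term, over the 14591 genes with at least 10 in at least 4 libraries. Fold changes on this scale understate changes of low genes. Alternatives were edgeR 4.0.16 (218 genes called), DESeq2 1.42.0 and limma-voom on recovered reads, other pseudocounts, filters and scalings, libraries left out and marker scores as covariates. Within a group, no pair of libraries was alike within counting error: chi-square divided by its degrees of freedom was 25.6 to 136. Named genes were the members past the threshold or with unadjusted p under 0.05, the 12 highest per kilobase, the extremes of each role and, of related lists, called genes and the 3 most abundant; Ahr, Nr1i2, Hnf4a, Ppara, Ces1f, Adipoq, Cidec, Krt5, Krt14, the hepatocyte markers and the unexpressed members under 10 were added after their values were seen. The members and lists were chosen with earlier results of these data known. Python 3.11.15 and pandas 2.3.3 read the files.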

Additional observations from a re-analysis of the deposited data

Results flagged for a closer look

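Cyp1a1 in control replicate 1, at 114.7 scaled reads, lay far from the other 3 controls (22.6 to 29.4). Its gap to the nearest of them was 0.926 of the group's range, above Dixon's 95% critical value for 4 samples. This was 1 of 52 groups checked, where chance flags about 1 in 20. Without that library the log2 fold change of Cyp1a1 was 0.28 rather than -0.26, and neither value passed.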

How the results depend on the processing

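Over 22 alternatives Cyp2e1 was lower in each, with log2 fold changes from -4.36 to -2.96, and passed in 19. Cyp27a1 and Cyp2d22 were higher in each and passed in 4 each. The covariates among the alternatives were the muscle, B cell and mammary scores. No alternative adjusted for the adipocyte markers, whose summed values did not overlap between groups. Over all genes 239 passed, against 776 with DESeq2, 127 with the B cell score as a covariate, 98 without the controls titled 517 and 518, and 71 (without knockout replicate 4) to 429 (without knockout replicate 3) with 1 library left out. The count of higher P450 genes was 2, against 3 with DESeq2, where Cyp4f39 was added, whose separation the filter fixed. It was 1 with a pseudocount of 0.5, and 0 with no filter, a minimum of 50, TMM or RLE scaling, edgeR or limma-voom. It was also 0 with any of the 3 marker scores or without the controls titled 517 and 518, and 0 to 1 with 1 library left out. The count of lower ones was 1, against 2 with the mammary score (Cyp2f2 added), 0 without those 2 controls and 0 to 2 with 1 library left out. The sign turned in 12 of 555 values, for 7 of 26 members, none of which passed: without those 2 controls for Cyp1a1 (0.21), Cyp26b1 (-0.21), Cyp4f16 (-0.0026) and Cyp4f18 (-0.081); with the B cell score for Cyp1a1 (0.017) and Cyp26b1 (-0.13); with the muscle score for Cyp1b1 (-0.13) and Cyp3a13 (-0.031); and without control replicate 1 for Cyp1a1 (0.28), control replicate 2 (-0.096) or knockout replicate 3 (-0.02) for Cyp26b1 and control replicate 3 for Cyp2u1 (-0.026). With 1 library left out, Cyp1a1 ranged from -0.52 to 0.28 and Cyp26b1 from -0.096 to 0.31. The causes were not tested. By DESeq2 63.4% of the called genes were higher, against 78.2% as reported, and without knockout replicate 1 66.7% were. No scaling moved the median of all genes by over 0.1. No paired analysis was possible because the title numbers are not shared between the genotypes. Members below 10 scaled reads are limited by depth.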

Other observations

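Cyp2e1 ranked the knockout libraries in the order replicate 1, 4, 2 and 3 from high to low. This order was looked at after its values were seen. With Cyp2e1 itself counted, which has it by definition, 5 of the 26 expressed P450 genes had it, against 13.6% of all tested genes. The others were Cyp1b1, Cyp4f17, Cyp39a1 and Cyp1a1. With so few members this count is not read as a trait of the family. Aox1 and Ephx2 had the same order, as did the nuclear receptor gene Ppara, with 388, 190.5, 128 and 232 scaled reads in Lsd1 KO replicates 1 to 4, against 421, 644, 451 and 375 in control replicates 1 to 4 (log2 fold change -1.09, limma adjusted p = 0.125). Gsto1, Gstt3, Ces1f, Adipoq, Cidec and Kdm1a had other orders. Knockout replicates 2 and 3 were nearly level for Ephx2. Ppara, Ces1f, Adipoq and Cidec were added after their values were seen, and what sets the order was not tested.

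In controls the 8 hepatocyte markers summed to 417 to 1013 scaled reads, against 22365 to 33816 for Cyp2e1. In knockouts they summed to 354 to 574, against 901 to 8281 for Cyp2e1. Of the 8, 3 were tested, each with a negative log2 fold change, and none passed. Albumin had 330 to 552 scaled reads in knockouts and 384 to 984 in controls, Apoa1 and Serpina1a stayed at or below 21.2 in any library, and Fgb had no read in any. The part of liver-type cells in the level of Cyp2e1 was not tested.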
